A study of Homo sapiens with 2 samples.

Results

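Tubulins, kinesins and dyneins are the parts of the microtubule system, and their genes were followed in H460 cells, an established human large-cell lung cancer line, with and without added PKP2. The members were the protein-coding genes whose symbols are those of alpha-, beta-, gamma-, delta- or epsilon-tubulin, of a numbered kinesin (KIF) or kinesin light chain (KLC), of a cytoplasmic dynein chain (DYNC, DYNL) or of a dynactin subunit (DCTN). They numbered 83 of the 22965 gene IDs with a readable count. Of these, 21 were tubulins, 13 mitotic kinesins, 17 transport kinesins and light chains, 10 other kinesins and 22 dynein and dynactin genes. Of the 83, 76 had a mean of at least 10 counts over both libraries and 7 did not.

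The study compared 2 RNA-seq libraries, 1 from cells carrying the empty pSin-puro vector and 1 from cells in which pSin-puro delivered PKP2, both from H460 at passage 5 in DMEM with serum. The purpose was to find genes downstream of PKP2, a plakophilin of desmosomes. Whether the cells were a clone or a pool is not given in the labels, and counts of the delivered and the native PKP2 cannot be told apart. Because each group is a single library, differences could not be set against a spread between cultures, no p-value is given, and the ratio of the libraries is the measure used throughout.

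The vector library held 23513304 counts and the PKP2 library 20319137. PKP2 itself went from 181 to 1330 counts, 8.66-fold higher, in the direction of the labels. Counts were turned into CPM, a count's share of the scaled library total, and each ratio is the log2 of CPM with PKP2 divided by CPM with vector, so that 1 is a doubling. Its 95% interval is an exact binomial interval that covers counting error only. Of the markers of an epithelial carcinoma, KRT8, KRT18 and KRT19 were well counted, from 3795 to 16537 counts. These keratins went opposite ways, with ratios of 1.08 for KRT19, -0.58 for KRT8 and -0.41 for KRT18. EPCAM had 28 and 16 counts, and CDH1 was not among the genes analysed here. Of the neuronal markers, NEFL had 6775 and 4422 counts and MAP2 3878 and 3219, while SYP, NEFM and SNAP25 had at most 90 in either library. RBFOX3, also a neuronal marker, was not among the genes analysed here. The leukocyte markers PTPRC and CD3E and the endothelial markers PECAM1 and CDH5 were not among the genes analysed here, while the leukocyte marker CD68 had 362 and 412 counts, a ratio of 0.42 (interval from 0.22 to 0.63). VWF, also an endothelial marker, had 2 and 0 counts. Of the fibroblast markers, COL1A1 had 132 and 48 counts, and COL1A2 and DCN were not among the genes analysed here. Of the ciliated markers, DNAH5 had 175 and 163 counts and DNAI1 6 and 4, and FOXJ1 and TEKT1 were not among the genes analysed here. In bulk RNA, fewer cells of a type and less RNA per cell cannot be told apart.

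Microtubules are hollow polymers of alpha- and beta-tubulin pairs, seeded by gamma-tubulin at centrosomes. Kinesins mostly walk toward the fast-growing end and dynein, with its activator dynactin, toward the other, and a separate set of kinesins builds and moves the mitotic spindle. Vertebrates have several alpha and beta isotypes that differ above all in their acidic C-terminal tails, where enzymes add glutamate or glycine side chains. TUBB3, TUBB2B and TUBA1A are isotypes best known from neurons, and TUBB3 is also studied in lung cancers for its link with response to taxanes.

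The beta isotypes the results turn on are shown by the last 20 coding codons and the stop codon of their principal transcript (GENCODE release 29). These ends encode the tails in which isotypes differ, and they also show which genes are too alike for reads there to be told apart. Capitals mark in-frame GAG and GAA codons, which encode glutamate.
TUBB: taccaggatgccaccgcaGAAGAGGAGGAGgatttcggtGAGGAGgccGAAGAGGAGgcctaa
TUBB2A: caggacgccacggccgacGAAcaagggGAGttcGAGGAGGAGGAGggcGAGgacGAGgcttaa
TUBB2B: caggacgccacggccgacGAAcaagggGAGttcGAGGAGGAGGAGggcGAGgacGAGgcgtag
TUBB3: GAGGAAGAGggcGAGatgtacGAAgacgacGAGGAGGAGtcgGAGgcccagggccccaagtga
TUBB4B: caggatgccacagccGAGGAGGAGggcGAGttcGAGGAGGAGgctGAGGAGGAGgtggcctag
TUBB6: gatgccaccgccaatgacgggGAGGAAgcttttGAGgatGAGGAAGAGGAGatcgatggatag

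TUBB2A and TUBB2B were 98.1% identical over the aligned coding sequence and differed at 2 of the 63 positions shown. TUBB3 was at 81.6% to 88.0% identity with the other 6 beta-tubulins that reached the count minimum. It was not set apart by this, since the least alike pair was TUBB and TUBB6, at 80.9%. The TUBB3 end carries 9 glutamate codons followed by a stretch that ends in a lysine codon. The share of 31-base stretches of a gene that is found in another listed gene, called shared sequence below, was 41.7% for TUBA1A, 43.7% for TUBA1B, 39.8% for TUBA1C, 63.5% for TUBB2A and 55.9% for TUBB2B. How the authors treated reads that fit more than 1 gene is not known here, and without a stated use of strand, reads of genes that overlap on opposite strands cannot be told apart.

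Among all 76 members at the count minimum, 1 was higher by 2-fold or more with PKP2, against 2.47% of the 15991 genes that reached the same minimum of 10 mean counts, and 5 were at least 2-fold lower, against 4.61% of all genes. TUBB3 was the higher one, and TUBB2B, KIF21B, KIF1A, KIF5A and TUBAL3 were the lower ones. The members' shares past 2-fold were thus near those of all genes. The counting interval lay wholly above 0 for 27 members and wholly below 0 for 26, where over all genes the shares were 25.9% and 28.8%. The median ratio was -0.03 over the members and -0.03 over all genes.

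Ratios were lower at higher GC content of the transcript over all genes (Spearman's rho -0.61 over 11610 genes, a description since genes are no replicates). Over the 62 members with a mean of at least 100 counts rho was -0.48, over the 12 such mitotic kinesins -0.85 and over the 12 such transport kinesins and light chains -0.78. Over the 15 such tubulins it was 0.31, so the sign was the opposite among the tubulins. With a smooth curve of the ratio on GC content subtracted, 3 members were at least 2-fold higher, against 2.35% of all genes, and 3 at least 2-fold lower, against 3.49%. TUBB6 and TUBB4A joined TUBB3 on the higher side, at 1.05 and 1.01, and TUBB2B and KIF1A left the lower side, at -0.84 and -0.74. After the subtraction rho was 0.01 over all genes but 0.69 over the 15 tubulins. Among the tubulins the corrected values thus followed GC content more closely than the ratios did, and they are not the cleaner values there. Below, the GC-corrected value, called corrected, stands beside the ratio of a member, a partner or a sum of paralogs where it turns the sign or moves the size by over 1.5 times, and the part of GC content in single ratios was not tested.

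**Figure D1:**
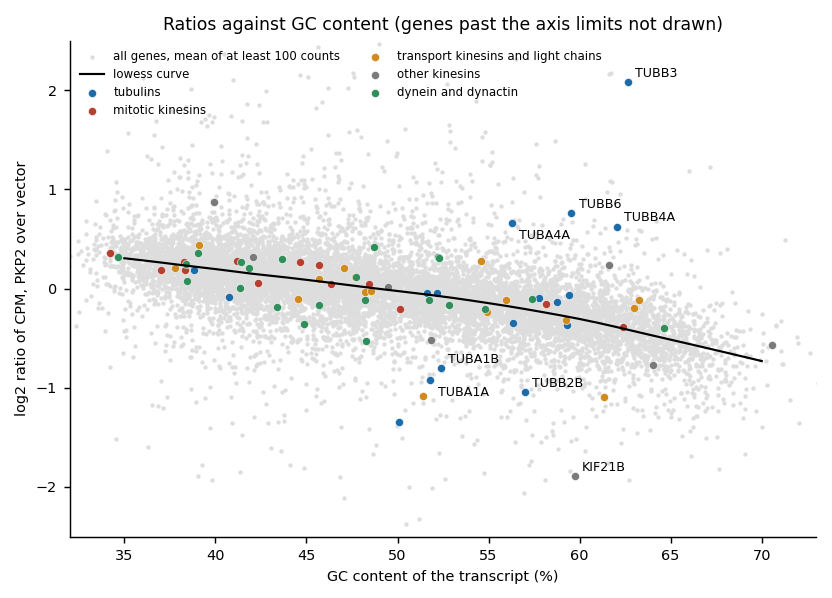
Log2 ratio of CPM (PKP2 over vector) against transcript GC content in percent, with members coloured by class, all genes of at least 100 mean counts in grey and the lowess curve in black. Most kinesin and dynein genes lie near the curve, while TUBB3 at 2.08, TUBB6 at 0.76, TUBA4A at 0.66 and TUBB4A at 0.63 lie above it and TUBA1A at -0.92, TUBA1B at -0.80, TUBB2B at -1.05 and KIF21B at -1.89 below it.

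The alpha-tubulins held the largest shift in transcript amount. TUBA1B, the most abundant isotype, went from 53127 counts with vector to 25871 with PKP2, or from 2239 to 1285 CPM. Its ratio was -0.80 (interval from -0.82 to -0.78), 1.74-fold lower. TUBA1A, a close paralog, went from 11040 to 4964 counts, or from 465 to 247 CPM, a ratio of -0.92 (interval from -0.97 to -0.87) that lies just inside the 2-fold threshold. Both isotypes were thus lower by similar amounts.

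TUBA1C, the other member of this gene cluster, differed far less, with 24295 and 20008 counts and 1024 and 994 CPM. Its ratio was -0.04 (interval from -0.07 to -0.02), or 0.02 corrected. TUBA4A, another alpha isotype, lay on the other side, with 2076 and 2790 counts, 87.5 and 139 CPM and a ratio of 0.66 (interval from 0.58 to 0.75). Its exons overlap those of STK16, a kinase gene, on the other strand, and summed with its antisense neighbours the ratio was 0.55. TUBA1A and TUBA1C also overlap each other on opposite strands, and reads of the 3 TUBA1 genes may have been split among them in a way that cannot be checked. TUBA1A and TUBA1C together were at -0.26 (interval from -0.29 to -0.24). Summed, TUBA1A, TUBA1B and TUBA1C went from 88462 to 50843 counts, a ratio of -0.56 (interval from -0.58 to -0.55), a sum in which TUBA1B has the most counts. The 3 alpha-tubulin pseudogenes together had 358 and 280 counts and so hold little of this difference.

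The minor alpha-tubulin genes were near the limit of detection. TUBA8 had 21 and 14 counts, with an interval of -1.44 to 0.70 that takes in 0. TUBAL3, an alpha-tubulin-like gene, had 15 and 5 counts, a ratio of -1.35, and although past 2-fold its interval of -3.16 to 0.18 takes in 0. TUBA4B had 2 and 4 counts and was under the minimum. Over all 7 alpha-tubulin genes the sum went from 3818 to 2665 CPM, a ratio of -0.52 (interval from -0.53 to -0.50) that was -0.45 after the GC correction.

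**Figure D2:**
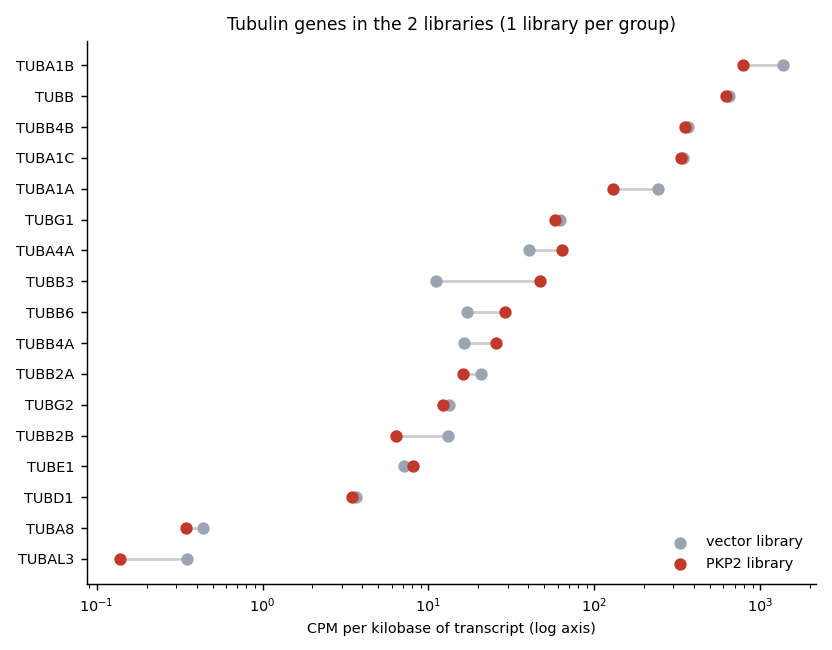
CPM per kilobase of principal transcript (log axis) of the 17 tubulin genes at the count minimum, in the vector library (grey) and the PKP2 library (red), 1 library each. TUBA1B and TUBA1A lie lower in the PKP2 library, TUBA4A, TUBB3, TUBB6 and TUBB4A lie higher, and TUBB, TUBB4B, TUBA1C and TUBG1 nearly coincide.

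The beta-tubulins did not follow the alpha-tubulins. TUBB, the main beta isotype, had 40797 and 33659 counts, or 1720 and 1672 CPM. Its ratio was -0.04 (interval from -0.06 to -0.02), or 0.03 corrected. TUBB4B, the next in level, had 14343 and 11675 counts, or 605 and 580 CPM. Its ratio was -0.06 (interval from -0.10 to -0.02), or 0.23 corrected. These genes carry most beta-tubulin transcripts, and on the uncorrected scale both were near 0, with intervals just below it.

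TUBB3 (ENSG00000258947), the class III beta-tubulin, was the member with the highest ratio. TUBB3 had 463 counts with vector and 1665 with PKP2, or 19.5 and 82.7 CPM, a ratio of 2.08 (interval from 1.93 to 2.23) and 4.24-fold higher. Its exons overlap those of ENSG00000198211, a protein-coding gene without a symbol here, on the same strand, and that gene had 190 counts with vector and 0 with PKP2. Of TUBB3's 31-base stretches 35.3% are shared with it. Summed over both genes the counts were 653 and 1665, a ratio of 1.59 (interval from 1.46 to 1.72). The sum is still past 2-fold, and it is the more cautious value, since reads may have been assigned between the 2 genes differently in the 2 libraries.

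The other minor beta-tubulins went both ways. TUBB6, the class V isotype, had 841 and 1211 counts, a ratio of 0.76 (interval from 0.63 to 0.89), and TUBB4A, an isotype of brain, had 998 and 1307 counts, a ratio of 0.63 (interval from 0.51 to 0.75; 1.01 corrected). TUBB6 overlaps AFG3L2, a mitochondrial protease gene, on the other strand, and summed with it the ratio was 0.21, but AFG3L2 alone had 2764 and 2339 counts, a ratio of -0.00, and holds most of that sum. The pair TUBB2A and TUBB2B was lower.

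TUBB2A had 785 and 518 counts, a ratio of -0.36 (interval from -0.53 to -0.20; -0.08 corrected), and TUBB2B 633 and 260 counts, a ratio of -1.05 (interval from -1.26 to -0.84). Because the pair is nearly identical its sum is given too, and it went from 1418 to 778 counts, a ratio of -0.63 (interval from -0.76 to -0.50; -0.38 corrected). TUBB2B overlaps PSMG4, a proteasome assembly gene, on the other strand. PSMG4 had 469 and 303 counts, and summed with it TUBB2B was at -0.73. TUBB1, TUBB8 and TUBB8B had at most 5 counts in either library. TUBB8, with 5 and 0 counts, was 1.41-fold lower against a floor of 3 counts in the PKP2 library, so no difference was detectable at this depth.

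Over all 10 beta-tubulin genes the sum was 2481 and 2498 CPM, a ratio of 0.01 (interval from -0.01 to 0.03) that was -0.02 with total counts as the scaling and 0.15 after the GC correction. Without TUBB3 it was -0.03 (0.11 corrected). Per kilobase of transcript, the alpha-tubulins summed to 2002 CPM per kilobase with vector and 1314 with PKP2, and the beta-tubulins to 1092 and 1104. The alpha sum was therefore 1.83 times the beta sum with vector and 1.19 times with PKP2.

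The make-up of each pool differed as well. On the scale of CPM per kilobase, TUBA1B made up 68.8% of alpha-tubulin with vector and 60.1% with PKP2, TUBA1A 12.1% and 9.80%, TUBA1C 17.0% and 25.2%, and TUBA4A 2.02% and 4.88%. In the beta pool TUBB made up 59.0% and 56.7% and TUBB4B 33.8% and 32.1%. TUBB3 went from 1.01% to 4.23% of the beta pool, from the lowest of the 7 measured isotypes to the next after TUBB and TUBB4B. This share and rank use TUBB3's own 463 and 1665 counts. With the more cautious sum over ENSG00000198211, 653 and 1665 counts, the share with vector would be larger and the rise smaller. Among the well counted isotypes, TUBA1C, TUBA4A, TUBB3, TUBB6 and TUBB4A thus held larger shares of their pools with PKP2. TUBA1B, TUBA1A, TUBB, TUBB4B, TUBB2A and TUBB2B held smaller ones. These shares rest on 1 transcript length per gene and on the authors' assignment of reads.

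**Figure D3:**
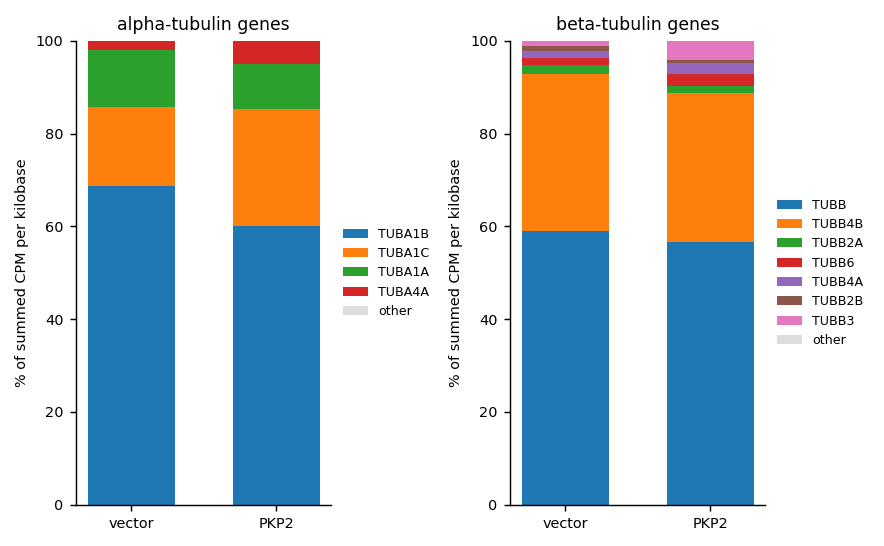
Share of each isotype in the summed CPM per kilobase of all alpha-tubulin genes (left) and all beta-tubulin genes (right), in percent, for the vector and the PKP2 library. TUBA1B takes 68.8% and then 60.1% of the alpha pool, and TUBB3 1.01% and then 4.23% of the beta pool.

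The tubulins outside the alpha-beta pair had ratios near 0. TUBG1, which nucleates microtubules in the gamma-tubulin ring complex, had 2367 and 1876 counts, a ratio of -0.10 (interval from -0.19 to -0.01), and its near copy TUBG2 557 and 432, a ratio of -0.13. Summed they were at -0.10, and after the GC correction the sum and both genes were at 0.13, on the other side of 0. TUBD1 and TUBE1, the delta- and epsilon-tubulins of centrioles, had ratios of -0.08 (-0.26 corrected) and 0.19 (-0.03 corrected) with intervals that take in 0. Over the 17 tubulins at the count minimum the median ratio was -0.08, and 0.02 after the GC correction. On the uncorrected scale 5 were above 0 and 12, or 70.6%, below, against 52.7% of all genes below.

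Genes that fold, modify and bind tubulin were taken from lists, and like the members these were chosen with earlier results of the data known. Their counts past 2-fold are to be read against the 2.47% of all genes that were higher and the 4.61% that were lower by that much. Of 17 folding and modifying genes none was past 2-fold, and the median was -0.14 (0.06 after the GC correction). On the uncorrected scale 13 of them, or 76.5%, were below 0, against 52.7% of all genes. TBCB, the cofactor that receives newly folded alpha-tubulin, was the farthest, with 1660 and 831 counts and a ratio of -0.76 (interval from -0.88 to -0.64; -0.48 corrected). ATAT1, the alpha-tubulin acetyltransferase, was at -0.28 and ARL2, a GTPase that works with the cofactors, at -0.26 (0.11 corrected).

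Of 12 genes of the gamma-tubulin ring complex and its anchors, 1 was at least 2-fold lower and 11 within 2-fold, with a median of -0.03. MZT2B, a small subunit of the ring complex, went from 1598 to 625 counts, a ratio of -1.12 that became -0.48 after the GC correction, and its near copy MZT2A was at -0.66 (-0.03 GC-corrected). NEDD1, which anchors the complex, went from 3563 to 4893 counts, a ratio of 0.69 (0.40 corrected). Of 26 microtubule-associated proteins 1 was at least 2-fold lower and none higher, with a median of -0.00. MAPT, the axonal protein tau, went from 449 to 114 counts, a ratio of -1.74 (interval from -2.05 to -1.44). DCLK1, a doublecortin-like kinase, went from 998 to 1692 counts, a ratio of 1.00 that falls just short of the threshold, and STMN3, a stathmin, had 85 and 42 counts, a ratio of -0.78 (-0.35 corrected).

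Mitotic kinesins build the spindle, align and segregate chromosomes and drive cytokinesis, and their genes are mostly switched on together in late cell cycle. Many such genes carry in their promoters a cell cycle homology region, called CHR, and CCAAT boxes bound by NF-Y. The 100 bases before the start site are shown for 4 of these kinesins, chosen for having both motifs there, from RefSeq's promoter table (GRCh38.p14), at chr15:69414249-69414348 on the plus strand for KIF23, chr10:92593030-92593129 on the plus strand for KIF11, chr11:28108157-28108256 on the minus strand for KIF18A and chrX:70290004-70290103 on the plus strand for KIF4A. Capitals mark CHR matches (TTTGAA or TTCGAA on either strand) and CCAAT matches on either strand.
KIF23: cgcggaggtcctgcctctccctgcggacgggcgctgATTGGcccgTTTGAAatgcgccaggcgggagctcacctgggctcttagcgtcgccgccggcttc
KIF11: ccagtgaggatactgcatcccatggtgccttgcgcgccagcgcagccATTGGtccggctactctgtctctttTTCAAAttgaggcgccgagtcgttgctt
KIF18A: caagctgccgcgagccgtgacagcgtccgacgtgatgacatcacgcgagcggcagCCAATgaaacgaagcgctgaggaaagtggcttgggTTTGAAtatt
KIF4A: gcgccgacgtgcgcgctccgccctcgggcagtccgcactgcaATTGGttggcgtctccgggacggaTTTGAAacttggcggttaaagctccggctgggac

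All 13 mitotic kinesin genes matched the table by symbol. In windows reaching from 250 bases before to 50 after a start site, 10 of the 13 held a CHR match, against 19.5% of 27305 genes in the table and 15.7% of the 11178 at the count minimum. CCAAT matches were found in 10 of 13, against 39.7% and 43.1%, and both together in 9 of 13, against 7.8% and 6.6%. Of the 13 transport kinesin and light chain genes with a window 1 held a CHR match, and of the 19 dynein and dynactin genes 1. A match is a description of letters and not a measured site. KIF2A and KIF2C held neither motif in their windows.

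All 13 mitotic kinesins were within 2-fold, from -0.38 to 0.35, as were 14859 of the 15991 genes at the count minimum. The median ratio was 0.19, and 0.03 after the GC correction, with corrected values from -0.18 to 0.17. The interval lay above 0 for 6 and below 0 for 3, where the shares over all genes were 25.9% and 28.8%. KIF11, the motor that pushes spindle poles apart, had 4866 and 4696 counts, or 205 and 233 CPM, a ratio of 0.19 (interval from 0.13 to 0.24) that was -0.05 after the GC correction. KIF23, the cytokinetic motor MKLP1, had 3682 and 3243 counts, a ratio of 0.05 (-0.09 corrected), and KIF20A, which carries the passenger complex to the midzone, 2691 and 2363, a ratio of 0.05. For both the interval takes in 0.

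KIF20B, another cytokinetic motor, was the highest of the class, with 2719 and 2951 counts, 115 and 147 CPM and a ratio of 0.35 (interval from 0.28 to 0.43). KIF15, which backs up KIF11 on the spindle, was at 0.28, and KIF14, a partner of citron kinase in cytokinesis, at 0.27. KIF2A, a microtubule depolymerase at spindle poles, had 2301 and 2351 counts, a ratio of 0.27, and summed with IPO11, which overlaps it on the same strand, 0.29. These higher genes have GC contents of 34.2% to 44.7%, and their corrected ratios were 0.03 for KIF20B, 0.11 for KIF15, 0.03 for KIF14 and 0.17 for KIF2A.

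On the lower side KIF18B, which shortens astral microtubules, had 1437 and 936 counts, a ratio of -0.38 (interval from -0.50 to -0.26) that became 0.02 after the GC correction. KIF2C, the kinetochore depolymerase MCAK, had 1967 and 1450 counts, a ratio of -0.20 (-0.18 corrected), and KIF22, a chromosome-arm motor, 3278 and 2491, a ratio of -0.16 (0.08 corrected). KIF18A, which limits chromosome oscillation, was at 0.19 (-0.08 corrected), and KIF4A, a chromosome motor, at 0.05 (-0.01 corrected). KIF4A and KIF4B share 27.3% and 27.7% of their sequence with another gene. Summed they had 3341 and 2934 counts, a ratio of 0.05 (-0.01 corrected), and KIF4B alone had 24 and 24 counts.

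Partners of these motors in mitosis were counted beside them. Of 24 such genes 1 was at least 2-fold higher and none lower, where the shares over all genes were 2.47% and 4.61%. Their median was 0.10 (-0.01 after the GC correction). FOXM1, a transcription factor of late cell cycle genes, went from 1105 to 2090 counts, a ratio of 1.16 (interval from 1.05 to 1.26). ECT2, which starts cytokinesis, was at 0.53 (0.29 corrected) and HMMR, a spindle protein, at 0.50 (0.22 corrected). The list went both ways, with 12 intervals above 0 and 7 below, where the shares over all genes were 25.9% and 28.8%. On the lower side, named after their values were seen, were the mitotic kinase AURKB at -0.50 (-0.31 corrected) and its partner BIRC5 at -0.36, the APC/C activator CDC20 at -0.34 (-0.11 corrected) and the kinase PLK1 at -0.26 (-0.05 corrected).

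**Figure D4:**
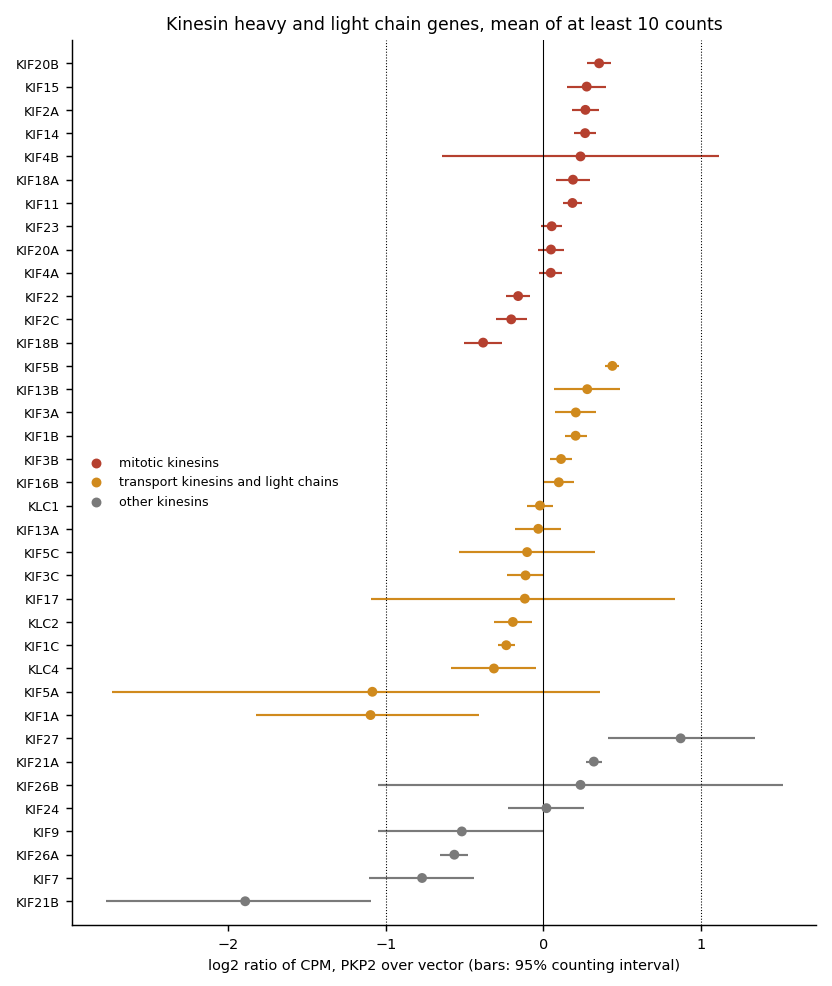
Log2 ratio of CPM (PKP2 over vector) with its 95% counting interval for the 37 kinesin and kinesin light chain genes at the count minimum, dotted lines at 2-fold. Mitotic kinesins (red) span -0.38 to 0.35, transport kinesins and light chains (orange) -1.10 to 0.44 and other kinesins (grey) -1.89 to 0.87, and the wide bars belong to genes with few counts.

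Transport kinesins carry vesicles, mitochondria and ciliary cargo along microtubules. The well counted motors of this class all lay within 2-fold, and both genes past it, KIF1A and KIF5A, are known mainly from neurons and had at most 63 counts. KIF5B, the conventional kinesin heavy chain of most cells and the most abundant of the class per kilobase, had 7739 and 8903 counts, or 326 and 442 CPM, a ratio of 0.44 (interval from 0.39 to 0.48) that was 0.22 after the GC correction. Its paralogs of neurons had few counts, 105 and 83 for KIF5C and 15 and 6 for KIF5A. The ratio of KIF5A, -1.09, is past 2-fold, but its interval of -2.74 to 0.36 takes in 0.

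KIF1A, the motor of synaptic vesicle precursors, had 63 and 25 counts, or 2.66 and 1.24 CPM, a ratio of -1.10 (interval from -1.83 to -0.41) that became -0.74 after the GC correction. Its broadly expressed paralogs were well counted. KIF1B, a mitochondrial and vesicle motor, had 3360 and 3288 counts, a ratio of 0.21, and KIF1C, a vesicle motor, 6380 and 4601, a ratio of -0.23 (interval from -0.29 to -0.18; -0.09 corrected). KIF1A was thus the member of its subfamily with the lowest level and the lowest ratio. KIF13B, a vesicle motor of cell polarity, was at 0.28 (0.41 corrected), and KIF13A and KIF16B, endosome motors, at -0.03 (-0.05 corrected) and 0.10 (0.03 corrected).

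The kinesin-2 motors, which drive cilium building and vesicle transport, differed little. KIF3A had 969 and 949 counts, a ratio of 0.21 (-0.04 corrected), KIF3B 3399 and 3120, a ratio of 0.11, and KIF3C 1284 and 1008, a ratio of -0.11 (0.06 corrected). KIF17, a homodimeric motor of the same family, had only 23 and 18 counts. The light chains, which tie kinesin heavy chains to cargo, were at or below 0. KLC2 had 1293 and 960 counts, a ratio of -0.19 (0.24 corrected), and KLC4 284 and 194, a ratio of -0.31 (interval from -0.58 to -0.04; -0.03 corrected).

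KLC1 had 2769 and 2316 counts, a ratio of -0.02 (interval from -0.10 to 0.06). ENSG00000256500, a protein-coding gene that overlaps KLC1 on the same strand, had 6 counts with vector and 269 with PKP2, and summed with it KLC1 was at 0.13 (interval from 0.06 to 0.21). KLC1 shares 39.4% of its sequence with other genes, and 27.9% with XRCC3, which overlaps it on the other strand. XRCC3 had 1033 and 627 counts. Summed with XRCC3 and BAG5, its antisense neighbours, KLC1 was at -0.06 (interval from -0.12 to -0.01). The value of KLC1 thus depends on how reads were assigned. KLC3 had 19 counts with vector and 0 with PKP2, 5.38-fold lower against a floor of 3 counts in the PKP2 library. The upper end of its counting interval was -1.99, and KLC3 fell short of the count minimum. Over the 16 genes of the class at the minimum the median ratio was -0.07. Of these genes 2 were at least 2-fold lower, against 4.61% of all genes, and 14 were within 2-fold. After the GC correction the median was -0.00 and 1 was at least 2-fold lower, against 3.49% of all genes.

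The other kinesins serve microtubule dynamics, cilia and signalling. KIF21B, a motor that restrains microtubule growth in neurons and immune cells, had the lowest ratio of all members at the count minimum. KIF21B had 70 counts with vector and 16 with PKP2, or 2.95 and 0.795 CPM, a ratio of -1.89 (interval from -2.78 to -1.09). That interval lies wholly past 2-fold, and the GC-corrected ratio was -1.60. Its paralog KIF21A went the other way, with 5765 and 6113 counts, 243 and 304 CPM and a ratio of 0.32 (interval from 0.27 to 0.37; 0.17 corrected).

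KIF26A, an atypical kinesin without motor activity, had 2743 and 1574 counts, a ratio of -0.56 (interval from -0.66 to -0.47), but with a GC content of 70.6% it was at 0.19 after the correction. KIF7, the ciliary regulator of Hedgehog signalling, had 233 and 116 counts, a ratio of -0.77 (interval from -1.10 to -0.44; -0.30 corrected). Summed with TICRR, a replication gene on the other strand, KIF7 was at -0.05. However, TICRR alone had 1331 and 1164 counts, a ratio of 0.04, and holds most of that sum. KIF27, a KIF7 paralog, had 65 and 101 counts, a ratio of 0.87 (interval from 0.41 to 1.35), and shares 38.1% of its sequence with other genes. KIF24, a centriolar depolymerase, had 309 and 266 counts, a ratio of 0.02 (0.03 corrected), and KIF9, a motor of motile cilia, 86 and 51, a ratio of -0.52. KIF26B had 12 and 12 counts, and KIF6 and KIF12, with at most 5 counts in either library, were under the minimum.

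Cytoplasmic dynein carries cargo inward from the cell edge. DYNC1H1, its heavy chain, was the member with the most counts, 73066 with vector and 77558 with PKP2, or 3080 and 3852 CPM. Its ratio was 0.32 (interval from 0.31 to 0.34), and 0.40 after the GC correction. The other chains of this dynein lay at or above 0 as well. DYNC1LI2, a light intermediate chain that binds cargo adaptors, had 6665 and 6935 counts, a ratio of 0.29 (interval from 0.25 to 0.34; 0.18 corrected), and DYNC1I2, the broadly expressed intermediate chain, 2155 and 2206, a ratio of 0.27 (0.11 corrected). DYNC1I2 shares 25.5% of its sequence with a processed pseudogene that had 592 and 540 counts.

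DYNC1LI1, the other light intermediate chain, was at 0.00 (interval from -0.10 to 0.11), and DYNC1I1, the intermediate chain of neurons, had 58 and 66 counts and an interval of -0.11 to 0.96. Over these 5 genes 3 intervals lay above 0 and none below, where the shares over all genes were 25.9% and 28.8%. Their summed ratio was 0.31, most of it from DYNC1H1. After the GC correction DYNC1LI1 was at -0.16 and the other 4 remained above 0.

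The chains of the ciliary dynein, which returns cargo from the tip of the cilium, went both ways. DYNC2H1, its heavy chain, had 1347 and 1362 counts, a ratio of 0.25 (0.02 corrected), and DYNC2LI1 254 and 277, a ratio of 0.36 (interval from 0.11 to 0.61; 0.14 corrected). DYNC2I2, an intermediate chain, was lower, with 1500 and 965 counts, a ratio of -0.40 (interval from -0.52 to -0.28), and 0.10 after the GC correction. Summed with SPTAN1, an abundant spectrin gene on the other strand, DYNC2I2 was at 0.27. However, SPTAN1 alone had 14034 and 14882 counts, a ratio of 0.32, and holds most of that sum. DYNC2I1, the other intermediate chain, was at -0.12, and DYNLT2B, a light chain of this motor, had 39 and 23 counts and an interval that takes in 0.

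Dynein light chains, which bind the intermediate chains and many other proteins, stayed between -0.36 and 0.32. DYNLL1 had 3310 and 2602 counts, a ratio of -0.11 (interval from -0.19 to -0.04; -0.05 corrected), and DYNLL2 1789 and 1647, a ratio of 0.12. DYNLRB1, of the roadblock family, had 1670 and 1750 counts, a ratio of 0.30 (interval from 0.21 to 0.40; 0.38 corrected). DYNLT3 was at 0.32 (0.00 corrected), DYNLT1 at -0.19 (-0.31 corrected) and DYNLT2, with 112 and 74 counts, at -0.36.

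Dynactin links dynein to its cargo and makes it processive. DCTN1, the p150Glued subunit that binds microtubules, had 5526 and 4376 counts, or 233 and 217 CPM, a ratio of -0.10 (interval from -0.16 to -0.04; 0.12 corrected). DCTN2, the dynamitin subunit, was at -0.17 (-0.08 corrected), DCTN3 at -0.20 (-0.06 corrected) and DCTN5 at -0.16 (-0.24 corrected), all with intervals below 0. DCTN4 was at 0.21 (interval from 0.14 to 0.27; 0.05 corrected). Dynactin subunits thus lay on both sides of 0, by small amounts. DCTN6 had 1189 and 1061 counts, a ratio of 0.07 (-0.16 corrected). It overlaps LEPROTL1, a membrane protein gene, on the same strand, which had 344 and 942 counts, and their sum was at 0.62.

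All 22 dynein and dynactin genes were within 2-fold, as most genes were, with a median ratio of 0.04. Of them 12, or 54.5%, were above 0, against 47.3% of all genes. After the GC correction the median was 0.01 and again none was past 2-fold. Among 26 adaptors and partners of dynein and kinesins at the minimum, 1 was at least 2-fold higher and 1 lower. Over all genes these shares were 2.47% and 4.61%. The median of the 26 was -0.00 (0.11 corrected). CAPZA1, an actin-capping subunit that also sits in dynactin, went from 3338 to 6352 counts, a ratio of 1.16 (interval from 1.10 to 1.23). MAPK8IP2, a scaffold of neurons, had 35 and 12 counts, a ratio of -1.31 (-0.69 corrected), and NINL, a centrosomal dynein adaptor, 143 and 62, a ratio of -0.97.

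**Figure D5:**
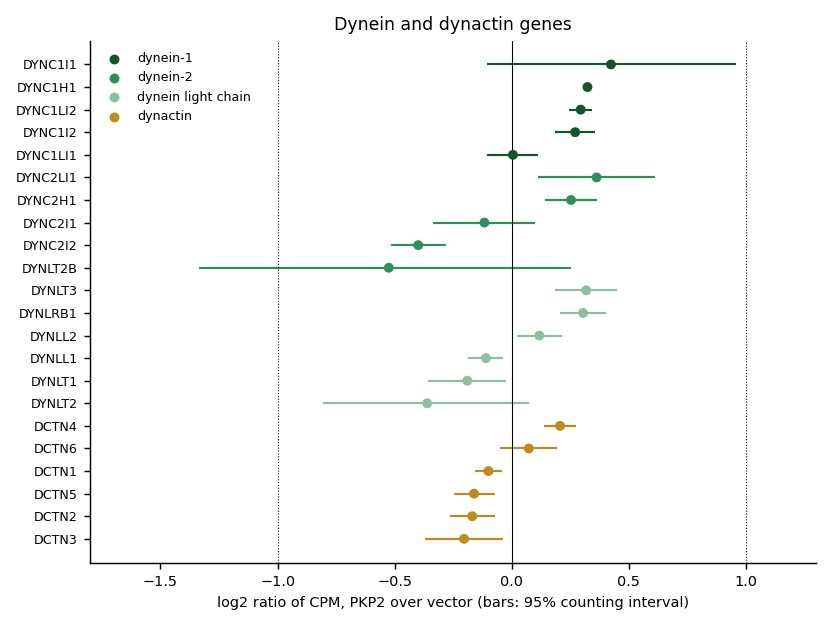
Log2 ratio of CPM (PKP2 over vector) with its 95% counting interval for the 22 dynein and dynactin genes, coloured by complex, dotted lines at 2-fold. The 5 chains of the main cytoplasmic dynein lie between 0.00 and 0.42, and dynactin subunits between -0.20 and 0.21.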

How the data were processed

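Total RNA of 1 vector and 1 PKP2 culture was made into TruSeq libraries, per the labels' protocols. Bowtie 0.12.2 and the builds GRCh37 and hg19 are named, per the submitters' processing notes. Which program counted reads, with which annotation and strand setting, is not given in the sources used here. The deposited values, 1 per Ensembl gene, are classed as estimated counts and are not normalized. They are whole numbers except in 1 damaged row, so nothing was rounded. In each file 2 rows without a readable gene count were left out. Symbols were found for 22579 IDs.

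CPM used library totals times edgeR 4.0.16 TMM factors. With 1 library per group edgeR's test has no residual spread to use, and no p-value is given. The members, classes and lists were chosen with earlier results of these data known. Any member could be named with its counts. Intervals were due for members past 2-fold, the 4 most abundant per kilobase in each class and the 2 highest and 2 lowest ratios of each class among members averaging 100 counts or more. From each partner list up to 3 genes with ratios farthest from 0 are named. A floor of 3 counts stood in for 0. Reads without molecular identifiers can be PCR copies, and intervals and floors reflect counting error alone.

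Transcript lengths, GC content, gene types, exon overlaps and shared 31-base stretches came from GENCODE release 29, whose build differs from the authors', so it was used by gene ID only. The GC curve was a lowess fit (fraction 0.3, statsmodels 0.14.6) on genes averaging 100 counts or more. Promoters came from RefSeq GRCh38.p14. Protein sequences were not used here, and coding ends of some members are not reported here. Alternatives were DESeq2 1.42.0 size factors, total counts, the GC correction, 1 CPM added, other count minimums and thresholds, and sums over overlapping genes. The ratio and interval steps were tested on simulated data. Python 3.11.15, SciPy 1.17.1 and R 4.3.3 were used.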

Additional observations from a re-analysis of the deposited data

How the results depend on the processing

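The median of the 8 other kinesins at the count minimum was -0.25, and 0.10 after the GC correction, and it was not followed over the further settings. The medians of the remaining 4 classes kept their sign under DESeq2 size factors, total counts, 1 CPM added and no count minimum. That of transport kinesins turned sign, to 0.04, at a mean of at least 100 counts, where fewer genes enter. The median of tubulins turned sign under the GC correction, from -0.084 to 0.016. Members at least 2-fold higher or lower numbered 1 and 5. They numbered 3 and 3 after the GC correction, under which the median of mitotic kinesins was 0.031, 3 and 9 with no count minimum, and 5 and 8 at a 1.5-fold threshold. Lower members numbered 1 at a 3-fold threshold, 1 with 1 CPM added and 1 with a mean of at least 100 counts. Under that last minimum, 161 of all 11637 genes were higher by 2-fold or more and 209 lower. For the no-minimum, 1.5-fold, 3-fold and 1 CPM settings no share of all genes is given, so those member counts lack that comparison. Among members that share under 20% of their sequence with another gene, a limit chosen after seeing the data, 0 were higher, since TUBB3 falls out. With 1 CPM added KIF1A, KIF5A, TUBAL3 and TUBB2B were short of 2-fold, since that addition pulls low levels together. No paired analysis was possible because each group has 1 library. Against TMM, size factors shifted every ratio by 0.010 and total counts by -0.026. A gene with few counts has a wide interval, so the ratios of KIF5A and TUBAL3 are limited by depth.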

Other observations

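Pseudogenes and other non-coding genes whose symbols follow the same pattern were left out of the members. TUBBP1, a processed copy of TUBB, had 352 and 243 counts, a ratio of -0.30 (interval from -0.54 to -0.06). TUBAP2, a processed alpha-tubulin copy, had 331 and 264 counts, a ratio of -0.09 (interval from -0.33 to 0.15). DYNC1I2P1 had 592 and 540 counts, a ratio of 0.10 (interval from -0.07 to 0.27). The remaining 11 had at most 25 counts in either library. With pseudogenes added, the summed ratio was -0.52 for alpha-tubulins and 0.01 for beta-tubulins.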
